A study of Rattus norvegicus with 56 samples.

Results

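Fibrosis genes and the genes of hepatic stellate cell matrix were followed through the livers of adult rat offspring. They comprise collagens, the enzymes that process and cross-link them, matrix proteases and their inhibitors, growth factor receptors and stellate cell markers. A list of 38 gene symbols was matched to the rows of a table of read counts for 17337 genes, and 35 symbols had a row. Col4a2, Col6a1 and Col6a3 were not analysed here. Col1a2, the second chain of type I collagen, had 0 or 1 reads in every library and was not tested. The other 34 genes passed a filter on low counts and were tested among 11047 genes.

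The 56 libraries were bulk liver RNA from Sprague-Dawley rats on day 180 of life, collected in the light phase at zeitgeber time 4 (ZT4) or in the dark phase at zeitgeber time 16 (ZT16), with 12 h of light and 12 h of dark. Each combination of sex, time and diet history is called a group, and the 16 groups held 3 or 4 livers each. The CON offspring (n = 12) came from chow-fed dams and ate regular chow. The HFhf offspring (n = 14) and their dams, from gestation day 11, received a Western diet high in fat with 25% fructose in the drinking water. The dams of the other offspring were restricted by 50% in calories from gestation day 10 until birth, which gives intrauterine growth restriction (IUGR). Their offspring then received regular chow (IUGR-RC, n = 15) or the Western diet with fructose (IUGR-HFhf, n = 15). The labels name no litters, so p-values measure the spread between these samples, which may include littermates.

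Hepatic stellate cells store vitamin A as retinyl esters in the space between hepatocytes and the sinusoidal endothelium. After injury, transforming growth factor beta and platelet-derived growth factor drive them towards contractile cells that secrete fibrillar collagen. Lysyl oxidases cross-link that collagen, while matrix metalloproteinases and their inhibitors set how fast it is removed. Basement membrane collagens, small proteoglycans and matricellular proteins belong to the same matrix, and endothelial cells, portal fibroblasts and smooth muscle make part of it.

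Depth was 5.55 to 19.1 M (mega) assigned reads per library (median 9.17 M), and the 34 tested genes together took 0.0861% to 0.233% of them (median 0.128%). The Y-linked gene Eif2s3y had 179 to 1946 reads in each of the 28 males and 0 or 1 read in each of the 28 females. Hepatocyte markers summed to 175300 to 472800 CPM (counts-per-million), although the tissue label names mouse liver for these rats. Skeletal muscle markers summed to 0.396 to 7.50 CPM in 53 livers. They reached 4335 CPM in the female ZT4 IUGR-RC replicate 2, 487.6 in the male ZT16 HFhf replicate 3 and 56.53 in the female ZT4 IUGR-HFhf replicate 2. The female ZT4 IUGR-RC replicate 3 went against its time label. Its Npas2, a clock gene, was at 0.532 CPM, against 13.85 to 51.58 in the ZT4 livers of the other 3 diet histories, and its Per2, another clock gene, was at 76.22 CPM, against 7.55 to 47.15. Results were therefore also computed without these 4 libraries. The IUGR-RC libraries carry titles of other series than the rest, M in all males and F in all females, where the rest carry T. Diet history and title series thus cannot be told apart in any comparison of IUGR-RC with CON. Within IUGR-RC, sex and title series cannot be told apart either. In bulk tissue, fewer cells of a type and less RNA per cell cannot be told apart.

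The first question was whether the Western diet with fructose moved these genes in the adult liver. Of the 34 tested genes, 1 rose and 0 fell in HFhf against CON, averaged over the 4 combinations of sex and time. The gene that rose was Sparc, a secreted glycoprotein that binds collagen; like every gene outside the naming rule given in the processing section, it was named after its values were seen. Over all 11047 genes, 4.31% were higher and 3.63% were lower in this comparison. The median log2 fold change of the 34 genes was 0.00 with 17 above 0, and that of all genes was 0.01. The 95% confidence intervals, which are not adjusted, reached a median of 0.24 on the log2 scale to either side of the estimate. A call required an adjusted p under 0.05, which is stricter. Changes smaller than 0.24, and some larger ones, were thus not detectable for a typical gene of the list.

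Sparc was at 57.6 to 111.7 CPM in CON (median 95.9), at 81.52 to 133.6 in HFhf (median 115.5) and at 83.24 to 147.7 in IUGR-HFhf (median 109). The 3 ranges overlapped, and the lowest liver was a CON female at ZT16. The log2 fold change was 0.29 (SE 0.08) in HFhf, with an adjusted p of 0.0108 in edgeR's quasi-likelihood test (Benjamini-Hochberg over all tested genes). This call was kept when any 1 of the 26 HFhf and CON livers was left out. In IUGR-HFhf the log2 fold change of Sparc was 0.25 (SE 0.08, edgeR adjusted p = 0.0245), and the call was kept in 22 of 27 such leave-outs. Both comparisons use the same CON livers, so their Sparc values do not support each other.

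In IUGR-HFhf against CON, 1 of the 34 genes rose and 2 fell, beside 5.8% higher and 4.68% lower over all tested genes. Pdgfra and Loxl2 fell. Pdgfra, a receptor for platelet-derived growth factor found on stellate cells and portal fibroblasts, was at 20.95 to 36.54 CPM in CON (median 29.06), 19.2 to 33.92 in HFhf (median 25.4) and 17.62 to 29.02 in IUGR-HFhf (median 23.03). The IUGR-HFhf livers lay in the lower part of the CON range and below it. The log2 fold change was -0.32 (SE 0.08, edgeR adjusted p = 0.00371), and the call was kept in 27 of 27 leave-outs. In HFhf the log2 fold change of Pdgfra was -0.19 (adjusted p = 0.145).

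Loxl2, a lysyl oxidase homologue that cross-links collagen, was at 4.493 to 9.534 CPM in CON (median 6.794), 3.828 to 8.52 in HFhf (median 5.821) and 2.766 to 9.083 in IUGR-HFhf (median 5.279). Its log2 fold change in IUGR-HFhf was -0.35 (SE 0.11, edgeR adjusted p = 0.0406). That call was lost in 14 of 27 leave-outs, and the ranges overlapped over most of their width.

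Genes by which fibrosis is usually read did not pass the test under either Western diet. Col1a1, the main chain of type I collagen, was at 1.266 to 19.34 CPM in CON (median 7.998) and 3.698 to 16.75 in IUGR-HFhf (median 5.493). Its log2 fold change was 0.15 in HFhf (95% interval -0.51 to 0.81) and 0.11 in IUGR-HFhf (-0.54 to 0.75). These intervals span both a fall and a rise of more than 0.5 on the log2 scale. For Acta2, the smooth muscle actin of contractile stellate cells, the values were 0.18 (-0.29 to 0.65) and 0.35 (-0.10 to 0.81). For Timp1, an inhibitor of matrix metalloproteinases, they were 0.02 (-0.26 to 0.30) and 0.23 (-0.04 to 0.50). Thbs1, a matricellular protein that activates latent transforming growth factor beta, had the highest log2 fold changes of the list, 0.60 in HFhf (edgeR adjusted p = 0.173) and 0.75 in IUGR-HFhf (0.0525). Its CPM was 5.038 to 20.82 in CON and 3.688 to 31.8 in IUGR-HFhf. In IUGR-HFhf it stayed uncalled in 21 of 27 leave-outs and in 4 of 6 other settings. The log2 fold change in these leave-outs was 0.63 to 0.95, and the highest came without the female ZT4 CON replicate 3 (edgeR adjusted p = 0.0114).

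IUGR-HFhf and HFhf livers were then compared directly, which asks what growth restriction added to the Western diet. None of the 34 genes passed edgeR's test (0 at an unadjusted p under 0.05, and 0 in limma-voom and DESeq2), where 0.0543% of all genes did. The median log2 fold change of the list was -0.05. Whether the diet effects differed between sexes was tested as well, and 0 genes were called for HFhf (0.0724% of all genes) and 0 for IUGR-HFhf (0.281%), with 0 at an unadjusted p under 0.05 in both. Between ZT16 and ZT4 the diet effects differed for 0 genes with HFhf (0.67% of all genes; 1 unadjusted) and 0 with IUGR-HFhf (0.643%; 2 unadjusted). DESeq2 and limma-voom called 0 in these tests as well. In a fit of only the groups compared, the HFhf effect on Pdgfrb was higher at ZT16 than at ZT4 by 0.62 (adjusted p = 0.0409).

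Other genes of the pathway were taken from lists of companions. Of 26 genes of transforming growth factor beta and platelet-derived growth factor signalling, 2 rose and 1 fell in HFhf. Itgb5, an integrin chain, rose by 0.30, Inhba, the activin A subunit, rose by 0.63, and Pdgfc, a platelet-derived growth factor, fell by 0.81 on the log2 scale. In IUGR-HFhf 1 of these 26 rose and 3 fell: Ltbp1, which holds latent transforming growth factor beta in the matrix, fell by 0.31, the receptor Tgfbr1 by 0.23 and the co-receptor Eng by 0.17. Of 16 further genes of collagen biosynthesis, 2 rose in HFhf, the prolyl isomerase Ppib by 0.37 and the prolyl hydroxylase subunit P4hb by 0.21. In IUGR-HFhf 3 rose, among them Ppib by 0.30 and the collagen galactosyltransferase Colgalt1 by 0.25, while Loxl4, another lysyl oxidase homologue, fell by 0.77. Among 17 genes of matrix breakdown, the aggrecanase Adamts5 rose by 2.10 in HFhf and 1.96 in IUGR-HFhf, and Timp3, an inhibitor of such proteases, fell by 0.63 and 0.57. Lama5, a laminin chain, was the 1 of 24 other matrix genes that fell in either diet, by 1.03 in HFhf and by 0.90 in IUGR-HFhf. Of 11 other stellate cell markers, the pericyte gene Rgs5 rose by 1.14 and 1.23, and in IUGR-HFhf Cygb and Hhip fell by 0.35 and 0.33.

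Within single combinations of sex and time, listed genes were called in 1 of 8 comparisons with CON. In males at ZT16, 0 genes rose and 3 fell in IUGR-HFhf, where 3.31% of all genes were called. The 3 were Lox, Loxl2 and Col5a2. Of the 34 genes, 3 had a log2 fold change above 0 (Sparc, Thbs1 and Mmp14), and the median was -0.34, against 0 over all genes.

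Lox, the lysyl oxidase that starts collagen cross-linking, was at 15.12, 21.97 and 7.007 CPM in the 3 CON males at ZT16. It was at 5.269, 6.432, 1.114 and 0.867 CPM in the 4 IUGR-HFhf males. Every IUGR-HFhf male was below every CON male, with a log2 fold change of -2.08 (SE 0.58, edgeR adjusted p = 0.0332). Loxl2 was at 7.558, 6.842 and 6.601 CPM in CON and at 2.766, 4.206, 5.198 and 3.758 in IUGR-HFhf. These ranges did not overlap either, and the log2 fold change of Loxl2 was -0.80 (SE 0.24, adjusted p = 0.043). Col5a2, a chain of type V collagen, which sits in the core of type I fibrils, was at 11.02, 12.5 and 9.444 CPM against 7.376, 5.938, 6.806 and 6.215. Its log2 fold change was -0.73 (SE 0.21, adjusted p = 0.043), whereas in males at ZT4 it was 0.55 (adjusted p = 0.267).

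These 3 calls rest on 7 livers. Without the male ZT16 CON replicate 1, CON replicate 2 or IUGR-HFhf replicate 4, 0 of the 34 genes were called, and 1 was called without IUGR-HFhf replicate 1, 2 or 3. Without the 4 libraries that stand apart the count was 6, and it was 8 when only these groups were fitted, but there the adjusted p of Lox was 0.186. In the authors' deposited table for this comparison the log2 fold changes were -2.10 for Lox, -0.81 for Loxl2 and -0.74 for Col5a2, with adjusted p-values of 0.0384, 0.0375 and 0.0428. Marker sums moved in the same livers. Endothelial markers summed to 491.5 to 531.3 CPM in CON and 430.1 to 472.6 in IUGR-HFhf, and vascular smooth muscle markers to 499.3 to 518.3 and 437.7 to 478.4. Kupffer cell markers summed to 549.6 to 664 and 498.5 to 547.4, and hepatocyte markers to 175300 to 193400 and 210400 to 240300. The sums of other stellate cell markers overlapped, at 264.6 to 269.4 and 241.4 to 275.6 CPM. The part of these sums in the result was not tested.

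The other 7 comparisons called 0 of the 34 genes. For HFhf, the share of all genes called was 0.688% at ZT4 and 0.932% at ZT16 among males, and 1.16% and 1.26% among females, and 2, 2, 2 and 1 of the 34 genes had an unadjusted p under 0.05. For IUGR-HFhf it was 0.462% in males at ZT4, and among females 0.679% at ZT4 and 2.22% at ZT16, with 5, 4 and 3 genes at an unadjusted p under 0.05. Medians of the list lay between -0.10 and 0.16 in these 7.

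**Figure D1:**
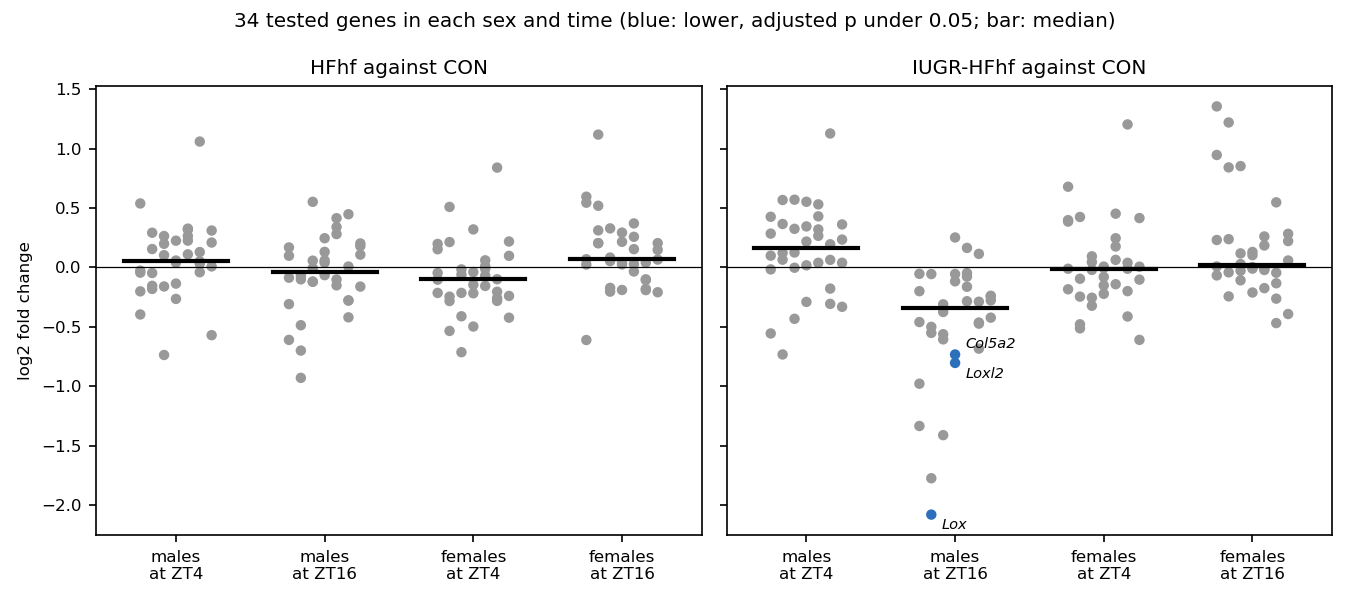
Log2 fold change against CON (y axis) of the 34 tested genes for HFhf and IUGR-HFhf in each combination of sex and time; each point is 1 gene, the bar is the median of the list and called genes are labelled. Labels appear only in males at ZT16 under IUGR-HFhf (Lox, Loxl2 and Col5a2), where the median was -0.34.

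The comparison of times of day called more of these genes than those of the Western diet did. Across CON, HFhf and IUGR-HFhf, 22 livers at ZT16 were compared with 19 at ZT4, averaged over both sexes and the 3 diet histories. Of the 34 genes, 2 rose and 17 fell in the dark phase, where 19.9% of all tested genes were higher and 19.1% were lower. The median log2 fold change of the list was -0.22 with 8 of 34 above 0, and that of all genes was 0.00. The vitamin A enzyme Lrat and the matricellular growth factor Ctgf rose, and members of most roles fell. By role, 3 of 4 fibrillar collagen chains, 4 of 5 collagen processing and cross-linking genes, 2 of 4 proteases and inhibitors and 2 of 3 growth factor and receptor genes fell, while none of 4 contractile and cytoskeletal genes was called. The 19 to 22 calls under other settings and the 18 to 20 calls with 1 liver left out stayed close to this count.

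The starts of 4 of these genes are shown, chosen by smallest p among the called genes for which a promoter was found. Of them, 2 fell (Col4a1 and Col5a1) and 2 rose (Lrat and Ctgf). Each sequence is the 250 bases before the annotated start in RefSeq's table for the GRCr8 build, a later assembly than the one used for the counts, on the strand of the gene. Col4a1 lies at chr16:84885347-84885596 (plus strand), Col5a1 at chr3:31606630-31606879 (plus), Lrat at chr2:170571213-170571462 (minus) and Ctgf, listed there as Ccn2, at chr1:22624615-22624864 (minus). Capitals mark, on either strand, the SP1 motif GGGCGG, the box CCAAT to which the NF-Y factor binds, the TATA box with the letters TATAAA, the E-box of clock proteins with the letters CACGTG, and the CArG box.
Col4a1: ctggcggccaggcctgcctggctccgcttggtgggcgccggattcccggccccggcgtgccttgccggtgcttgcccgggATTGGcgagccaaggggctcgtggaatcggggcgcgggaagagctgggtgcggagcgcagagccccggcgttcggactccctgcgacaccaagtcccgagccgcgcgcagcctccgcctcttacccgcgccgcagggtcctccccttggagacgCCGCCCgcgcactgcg
Col5a1: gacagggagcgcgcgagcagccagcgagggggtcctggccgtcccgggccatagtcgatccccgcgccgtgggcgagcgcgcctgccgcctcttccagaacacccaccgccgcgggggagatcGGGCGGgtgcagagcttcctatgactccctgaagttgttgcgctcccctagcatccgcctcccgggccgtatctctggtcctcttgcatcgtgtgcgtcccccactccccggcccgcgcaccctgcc
Lrat: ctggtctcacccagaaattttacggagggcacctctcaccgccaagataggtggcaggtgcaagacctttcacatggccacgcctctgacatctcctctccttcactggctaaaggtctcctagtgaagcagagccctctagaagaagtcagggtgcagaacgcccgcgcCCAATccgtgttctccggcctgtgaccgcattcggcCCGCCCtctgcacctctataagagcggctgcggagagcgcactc
Ctgf: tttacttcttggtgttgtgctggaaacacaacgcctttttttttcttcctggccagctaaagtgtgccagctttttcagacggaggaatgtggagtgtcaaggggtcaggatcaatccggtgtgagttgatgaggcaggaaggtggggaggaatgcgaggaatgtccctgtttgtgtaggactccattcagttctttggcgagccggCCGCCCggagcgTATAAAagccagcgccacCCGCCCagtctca

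The GC content of these stretches was 75.2% for Col4a1, 71.6% for Col5a1, 59.2% for Lrat and 53.2% for Ctgf. Ctgf had TATAAA 31 bases before its start, with GGGCGG at 43 and 13 bases. Col4a1 had GGGCGG 16 bases and CCAAT 170 bases before its start, Col5a1 had GGGCGG at 127 bases, and Lrat had GGGCGG at 44 and CCAAT at 80 bases. The genes that fell and those that rose thus shared GGGCGG, and CACGTG was in none of the 4 stretches. A promoter was found for 25 of the 38 genes, 11 of them among those called between times. Of these 25, 14 held GGGCGG (32.4% of 27457 promoters of the same length), 8 held CCAAT (34.3%), 3 held TATAAA (13.1%) and 0 held the CArG box (1.5%). The SMAD motifs CAGAC and GTCT, which are short and partly overlap, were in 10 and 21 of 25, against 42.8% and 83.9% of all promoters. CACGTG, searched after the values were seen, was in 1 of 25 (Reln), against 5.79% of all promoters. A match describes the letters of these windows and no bound site.

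Among collagens, Col4a1, the basement membrane chain, was at 48.26 to 95.54 CPM at ZT4 (median 68.14) and at 24.84 to 59.16 at ZT16 (median 41.86). The 2 times did not overlap in any of the 6 combinations of sex and diet history. The log2 fold change of Col4a1 was -0.80 (SE 0.08, edgeR adjusted p = 2.21e-11). In CON males it was at 63.04, 76.59 and 62.71 CPM at ZT4 and at 47.71, 49.6 and 41.84 at ZT16. In CON females it was at 65.64, 67.69 and 67.58 CPM at ZT4 and at 41.51, 25.48 and 24.84 at ZT16. Every CON liver at ZT16 was thus below every CON liver at ZT4. Col5a1, a type V collagen chain, was at 20.92 to 43.45 CPM at ZT4 (median 29.55) and 12.42 to 25.66 at ZT16 (median 19.94), without overlap in 5 of 6 combinations. Its log2 fold change was -0.65 (adjusted p = 9.87e-08). Col3a1, the type III fibrillar chain, fell by 0.30 (adjusted p = 0.00206), and Col5a2 by 0.23 (0.0276). Col1a1 had a log2 fold change of -0.55 that did not pass (adjusted p = 0.0929), and neither Col6a2 nor Col14a1 was called.

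Receptors and ligands came next. Pdgfrb, the receptor for platelet-derived growth factor on stellate cells and pericytes, was at 21.57 to 50.91 CPM at ZT4 (median 38.4) and 11.95 to 29.25 at ZT16 (median 17.98). It did not overlap between times in 5 of 6 combinations and fell by 0.99 on the log2 scale (SE 0.11, edgeR adjusted p = 1.04e-09). In CON females it was at 50.42, 50.91 and 38.78 CPM at ZT4 and at 14.49, 11.95 and 13.53 at ZT16, and in CON males at 49.94, 40.28 and 38.4 against 20.47, 27.23 and 21.53. Both sexes were lower at ZT16 without overlap. Tgfb1, the ligand, was at 7.867 to 16.15 CPM at ZT4 (median 11.11) and 6.981 to 11.69 at ZT16 (median 8.642), and it fell by 0.33 (adjusted p = 0.00085). Pdgfra, the other receptor, had a log2 fold change of -0.05 and did not pass. Ctgf, a matricellular protein that responds to transforming growth factor beta and YAP, was at 1.877 to 8.653 CPM at ZT4 (median 3.303) and 3 to 9.9 at ZT16 (median 6.277). It rose by 0.71 (SE 0.16, adjusted p = 0.000398), with overlapping ranges.

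Proteases and cross-linking enzymes were lower as well. Mmp14, a membrane-bound metalloproteinase, was at 47.44 to 127.3 CPM at ZT4 (median 78.65) and 41.57 to 79.8 at ZT16 (median 54.42), and fell by 0.61 (adjusted p = 2.68e-07). Mmp2, the gelatinase that Mmp14 activates, fell by 0.41 (adjusted p = 0.00342). Timp1 had a log2 fold change of -0.08 and did not pass, so the inhibitor was not called while both proteases fell. Loxl2 fell by 0.44 (0.000208), Loxl1 by 0.94 (0.00101) and Pcolce, which enhances procollagen processing, by 0.33 (0.00452). Lox fell by 0.93 (0.0312), but its adjusted p was 0.0938 with limma-voom and 0.0518 when only these groups were fitted. Its mean was lower at ZT16 in 5 of 6 combinations of sex and diet history and higher in 1, the CON males. There it was at 6.545, 6.999 and 10.73 CPM at ZT4 and at 15.12, 21.97 and 7.007 at ZT16. The time effect on Lox in males minus that in females was 1.34 (edgeR adjusted p = 0.311). Serpinh1, the collagen chaperone, was not called.

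Among matricellular and microfibril genes, Thbs2, a thrombospondin, was at 5.108 to 11.55 CPM at ZT4 (median 7.731) and 3.093 to 6.827 at ZT16 (median 4.736) and fell by 0.64 (adjusted p = 3.14e-06). Fbn1, the fibrillin of microfibrils, fell by 0.46 (0.000646), Sparc by 0.22 (0.00383) and the proteoglycan Bgn by 0.16 (0.00727). The last 3 thus fell by less than Thbs2 did. Of the stellate cell markers, Lrat, which makes the retinyl esters these cells store, was at 31.33 to 66.03 CPM at ZT4 (median 47.19) and 40.91 to 90.53 at ZT16 (median 57.24). It rose by 0.35 (SE 0.07, edgeR adjusted p = 0.000161) and was higher on average at ZT16 in 6 of 6 combinations. Reln, a secreted glycoprotein of stellate cells, fell by 0.20 (0.00509). The 2 markers thus moved in opposite directions. Acta2 (log2 fold change -0.40, adjusted p = 0.0804) and Des, the intermediate filament desmin (0.10), did not pass.

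**Figure D2:**
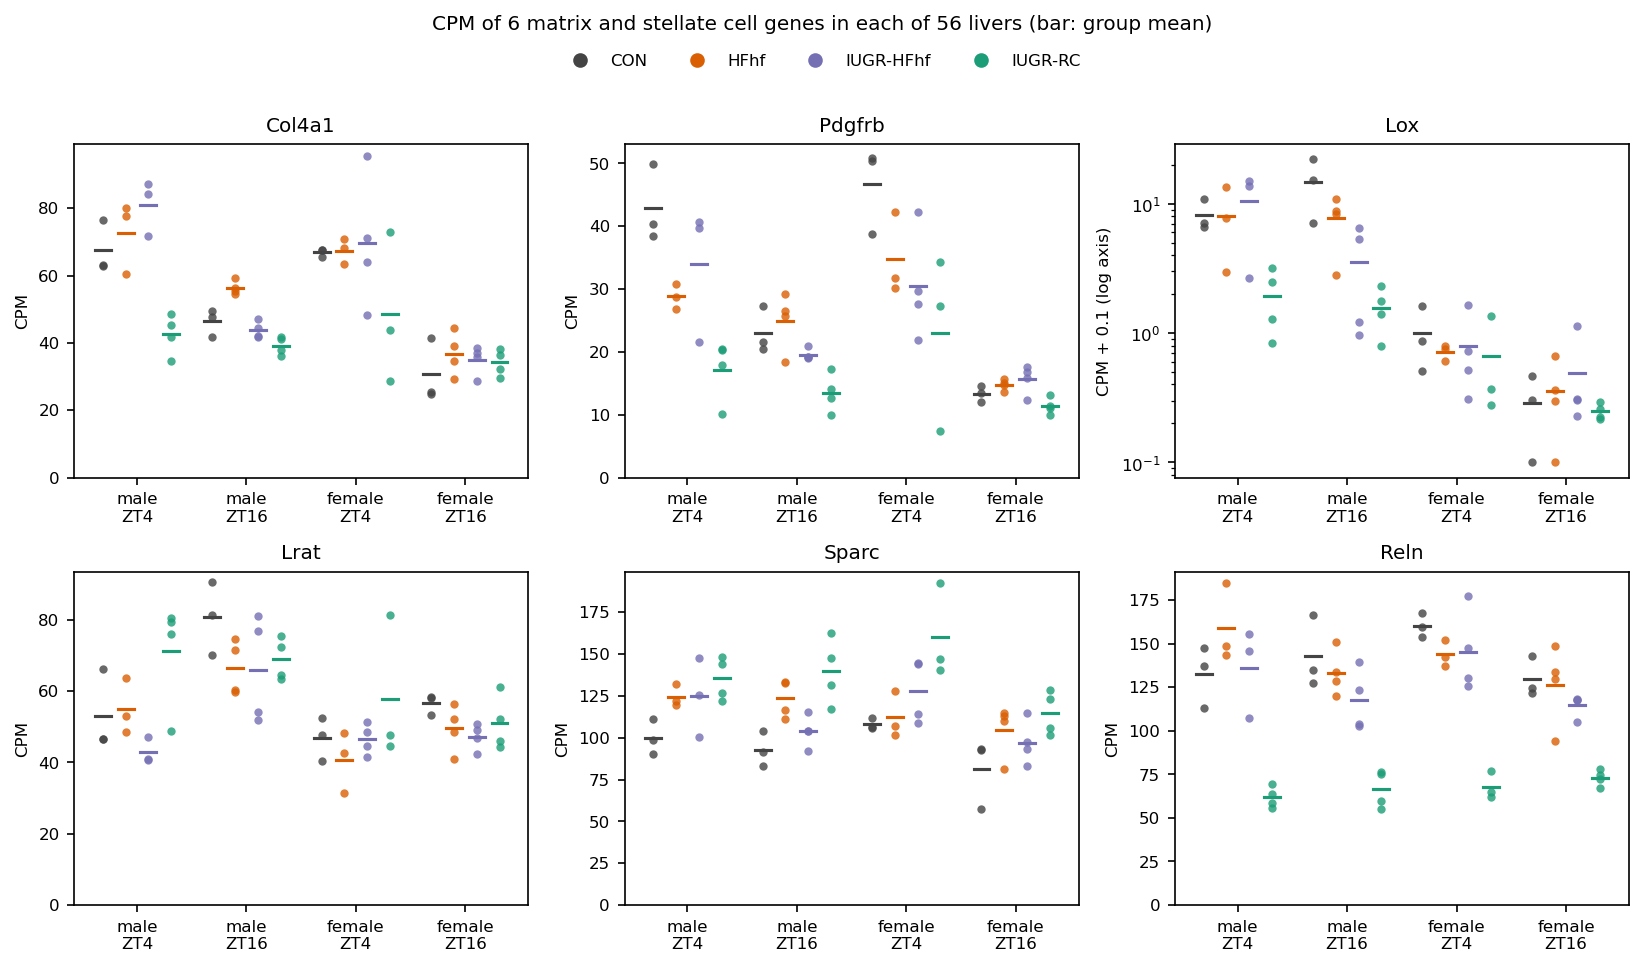
CPM (y axis; Lox as CPM + 0.1 on a log axis) of Col4a1, Pdgfrb, Lox, Lrat, Sparc and Reln in the 16 groups; each point is 1 liver and the bar is the group mean. In CON, HFhf and IUGR-HFhf, the group means of Col4a1 and Pdgfrb are lower at ZT16 than at ZT4. In these diet histories, Lox is at 0.867 CPM or more in males and at 1.534 or less in females. Reln is at 77.94 or less in every IUGR-RC liver.

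Contrasts of times within CON, HFhf or IUGR-HFhf, and of time effects between sexes, were added after values were seen. They came from the fit of all 56 libraries. ZT16 against ZT4 gave 4 lower genes in CON (6.91% of all genes were lower), 4 in HFhf (4.77%) and 17 in IUGR-HFhf (12.3%). The list medians were -0.15, -0.12 and -0.47. The log2 fold change of Col4a1 was -0.83 in CON, -0.62 in HFhf and -0.94 in IUGR-HFhf, and that of Pdgfrb was -1.35, -0.72 and -0.89. The test of the difference itself, given above, called 0 genes, so the larger count in IUGR-HFhf was not shown to differ from that in CON. The time effect in males minus that in females was called for 0 of 34 genes (3.12% of all genes; 5 unadjusted in edgeR). Its median was 0.16 with 31 of 34 above 0, and for Pdgfrb it was 0.70 (adjusted p = 0.0618). The fall of Pdgfrb at ZT16 was thus larger among these females than among these males, by a difference that did not pass.

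The companion lists moved with time too. Of 26 pathway genes, 2 rose and 7 fell, with Inhba at -0.93, the receptor Tgfbr2 at -0.21 and Eng at -0.18 on the log2 scale. Of 16 further collagen biosynthesis genes, 2 rose and 2 fell, with Loxl4 at -1.76, the procollagen protease Bmp1 at -0.54 and the prolyl hydroxylase subunit P4ha2 at 0.48. Of 24 other matrix genes, 0 rose and 9 fell, among them fibronectin (Fn1) at -0.49, Emilin1 at -0.44 and the collagen Col8a1 at -0.53. Of 17 matrix breakdown genes, 4 rose and 4 fell, with the collagen-degrading cathepsin Ctsk at 0.51 and plasminogen (Plg) at -0.24.

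Markers of other cells stood beside these changes. Endothelial markers had 6 of 9 lower at ZT16, among them Flt4 at -0.33, Cdh5 at -0.25 and Vwf at -0.35, and summed to 513.2 to 645.8 CPM at ZT4 and 430.1 to 568.1 at ZT16. Vascular smooth muscle markers had 2 of 8 lower, and their sums were 463 to 634.5 and 355.9 to 546.5 CPM. Among 11 other stellate cell markers only Gfap was called, at -0.47, and Kupffer cell markers had 0 of 11 called (edgeR). Their part in the lower collagen and receptor values was not tested.

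The comparison of sexes called 16 of the 34 genes. In 20 males against 21 females of the same 3 diet histories, averaged over both times, 12 of the 34 genes were higher in males and 4 were lower, where 17.7% and 17.5% of all genes were. The median log2 difference was 0.17 with 27 of 34 above 0, against 0.00 over all genes. Counts under other settings were 15 to 19.

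Lox stood far apart in size. It was at 0.867 to 21.97 CPM in males (median 7.352) and 0 to 1.534 in females (median 0.413), a log2 difference of 4.20 (SE 0.32, edgeR adjusted p = 6.24e-15) or 18.4-fold. Males did not overlap with females in 5 of 6 combinations of time and diet history. In CON at ZT4 it was at 6.545, 6.999 and 10.73 CPM in males and 0.413, 0.763 and 1.515 in females. In contrasts added after values were seen, the difference was 4.75 in CON, 4.27 in HFhf and 3.59 in IUGR-HFhf. In females these levels rest on few reads, since some libraries held none.

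Averaged over CON, HFhf and IUGR-HFhf, type I and type III collagen were higher in males. Col1a1 was at 4.206 to 19.34 CPM in males (median 10.82) and 1.266 to 13.09 in females (median 4.896), higher by 1.10 on the log2 scale (SE 0.26, adjusted p = 0.000782). Col3a1 was at 125.2 to 215.4 CPM in males (median 175.9) and 92.42 to 195.8 in females (median 125.8), higher by 0.39 (5.65e-05), and males had the higher mean in 6 of 6 combinations. For Col1a1 this held in 5 of 6. In the contrasts added after values were seen, Col1a1 and Col3a1 passed edgeR's test in CON (adjusted p = 0.0245 and 0.0426) and HFhf (0.0195 and 0.00585). In IUGR-HFhf the log2 differences were 0.37 (0.658) and 0.28 (0.137), and neither passed. The IUGR-HFhf effect on Col1a1 in males minus females was -1.13 (0.841), so its sex difference was not shown to vary with diet. Col4a1 was higher by 0.31 (0.00106), Col6a2, a microfibrillar collagen, by 0.30 (0.00742) and Col14a1, which binds fibrils, by 0.19 (0.0191). All these ranges overlapped between the sexes.

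Proteases split by sex. Mmp2 was at 3.836 to 10.62 CPM in males (median 8.118) and 3.281 to 9.772 in females (median 5.352), higher by 0.61 (adjusted p = 1.92e-05), whereas Mmp14 was lower in males by -0.37 (0.000531). Timp1 was higher by 0.38 (0.00583). Lrat was at 40.55 to 90.53 CPM in males (median 59.95) and 31.33 to 58.28 in females (median 48.54), higher by 0.32 (0.000363). Ctgf was higher by 0.45 (0.0219) and Acta2 by 0.49 (0.0323). The Pdgfrb difference of 0.27 (0.0486) was kept in only 7 of 41 leave-outs. Thbs1 was lower in males by -0.63 (0.0139), Bgn by -0.13 (0.0364) and Serpinh1 by -0.24 (0.0373). The call was kept in 28 of 41 leave-outs for Bgn and in 27 of 41 for Serpinh1.

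**Figure D3:**
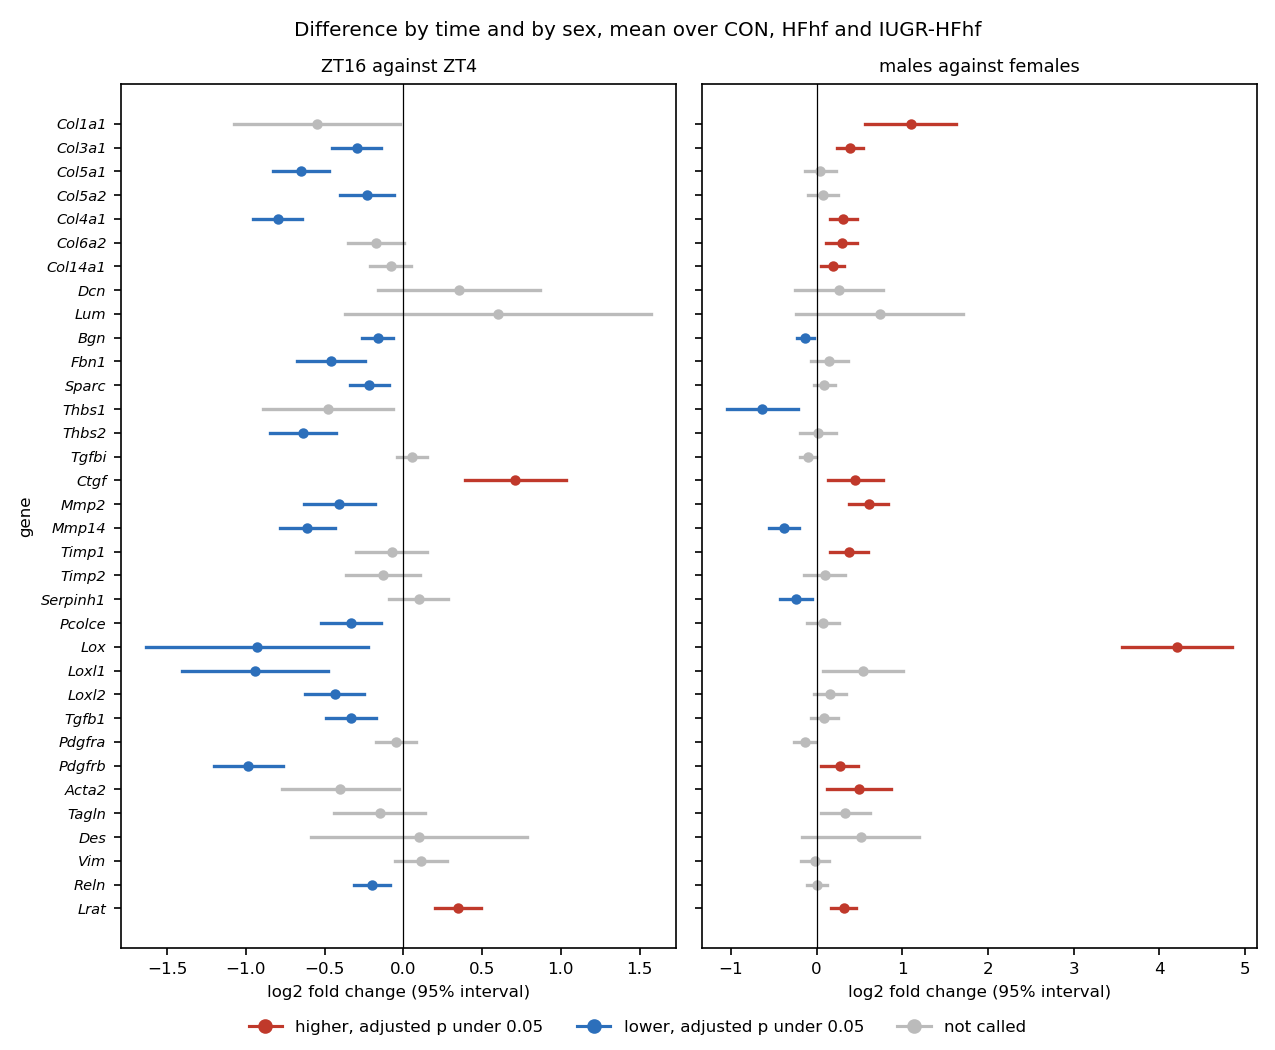
Log2 fold change (x axis) of the 34 tested genes at ZT16 against ZT4 and in males against females, over CON, HFhf and IUGR-HFhf, with 95% confidence intervals as lines; red marks genes called higher, blue genes called lower and grey genes that did not pass. Lox in males stands apart at 4.20, and 17 genes are blue at ZT16.

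Among companions, 7 of 26 pathway genes were higher in males and 4 lower, with Pdgfc at 1.40, the pseudoreceptor Bambi at 0.70 and Bmp7 at -1.62. Of 24 other matrix genes, 9 were higher and 0 lower, among them vitronectin (Vtn) at 0.42, the laminin chain Lamc1 at 0.45 and Col18a1 at 0.32. Collagen biosynthesis had 5 higher and 1 lower of 16, with P4ha2 at 0.35, the prolyl hydroxylase P3h1 at 0.30 and Ppib at -0.28. Of 11 other stellate cell markers, Rgs5 was higher at 0.63 and 3 were lower, among them Hgf at -0.21.

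Growth-restricted rats on chow were the remaining history. In IUGR-RC against CON, 11 of the 34 genes were higher and 9 lower, where 33% and 29.9% of all genes were, so that the share called in the list, 58.8%, was close to that of the genome. Since title series and diet history cannot be told apart here, these values describe 2 sets of libraries. Reln showed the smallest p. It was at 55.05 to 77.94 CPM in the 15 IUGR-RC livers and 112.9 to 167.7 in CON, without overlap, and the lowest liver of the other 3 diet histories was at 94.17. Its log2 fold change was -1.07 (SE 0.07, edgeR adjusted p = 1.39e-17), and -1.10 without the 4 libraries that stand apart. Lrat, the other stellate cell marker of the list, had a log2 fold change of 0.09 and did not pass (edgeR adjusted p = 0.4).

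Other genes that were lower in IUGR-RC were receptors, cross-linkers and fibril parts. Pdgfrb was at -0.84 (5.86e-07), Fbn1 at -0.62 (8.65e-05), Loxl2 at -0.54 (5.74e-05), Col5a1 at -0.45 (4e-04) and Lox at -1.59 (0.00883) on the log2 scale, with edgeR adjusted p-values in brackets. Col4a1, Mmp14 and Col14a1 were lower by smaller amounts, from -0.31 to -0.20. Higher genes included Serpinh1 at 0.79 (5.26e-08), Sparc at 0.53 (4.93e-08), Timp1 at 0.67 (2.04e-05) and the actin-binding protein Tagln at 0.80 (8.21e-05). Dcn, a proteoglycan that decorates collagen fibrils, was at 1.29 (0.000194). The Kupffer cell markers had 8 of 11 higher and summed to 713.7 to 1461 CPM against 549.6 to 828.7 in CON, while 5 of 9 endothelial markers were lower and 7 of 10 hepatocyte markers were higher. Other stellate cell markers summed to 290.4 to 572 CPM in IUGR-RC and to 243.9 to 356.6 in CON, with overlapping ranges. The part of these cells in the result was not tested.

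A single liver high in skeletal muscle markers decided part of these calls. In the female ZT4 IUGR-RC replicate 2, Dcn was at 175.4 CPM, Des at 145.4, Col1a1 at 76.77, Lum, another proteoglycan of fibrils, at 30.35 and Acta2 at 26.22. Its 2 companions had Des at 3.108 and 2.57 and Col1a1 at 3.581 and 1.773. Without that liver 7 genes were higher and 13 lower. Des went from 0.94 (edgeR adjusted p = 0.0306) to -0.12 (0.651), Lum from 1.28 (0.0303) to 0.55 (0.277) and Acta2 from 0.54 (0.0323) to 0.12 (0.554). Dcn went from 1.29 to 0.77 and kept its call (0.00344).

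**Figure D4:**
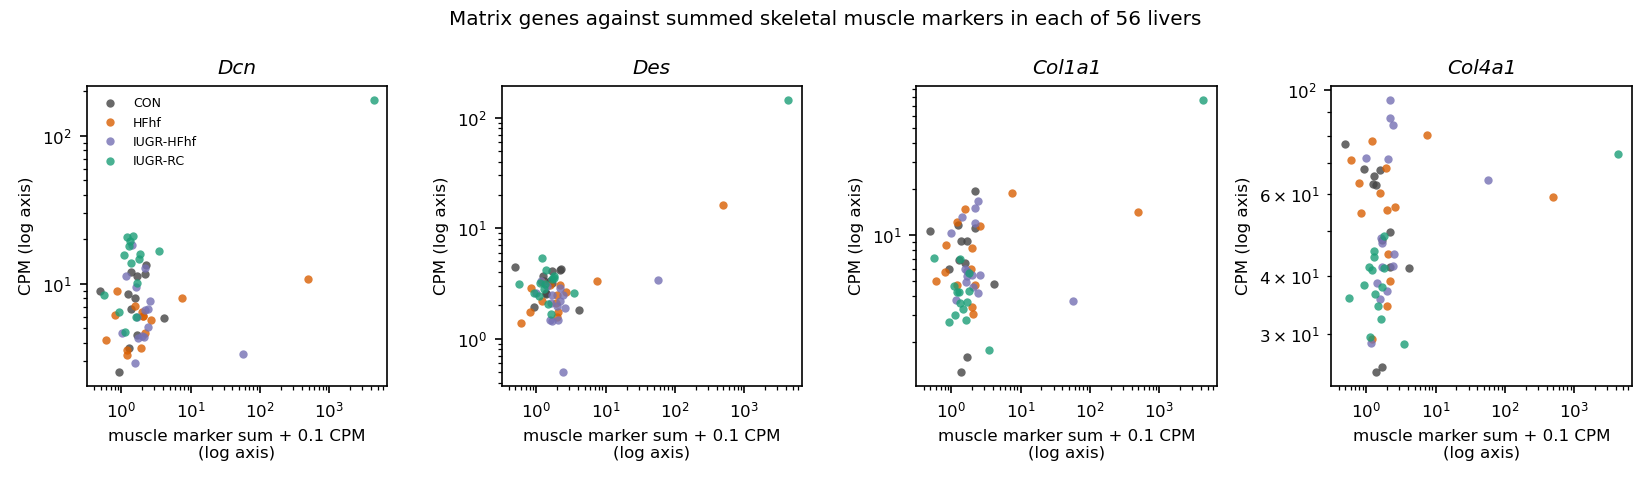
CPM of Dcn, Des, Col1a1 and Col4a1 (y axes, log scale) against the summed skeletal muscle markers plus 0.1 CPM (x axes, log scale), 1 point per liver. The female ZT4 IUGR-RC replicate 2, at 4335 CPM of muscle markers, has Dcn at 175.4 and Des at 145.4, and the male ZT16 HFhf replicate 3, at 487.6, has Des at 16.22.

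Within IUGR-RC, ZT16 against ZT4 gave 3 higher and 11 lower genes (9.4% and 10.6% of all genes), and males against females gave 2 higher and 10 lower (14.9% and 15.5%). Without the female ZT4 IUGR-RC replicate 2 these became 4 higher and 2 lower for time and 4 higher and 3 lower for sex. At ZT16, Thbs2 fell by 0.76 (edgeR adjusted p = 0.00143), and without that liver by 0.49 (0.0274). Tgfb1 rose by 0.44 (0.013) at ZT16 here, whereas its mean over the other 3 diet histories fell, and that difference was not tested. Taken one history at a time in the fit of all 56 libraries, Tgfb1 passed edgeR's test in IUGR-HFhf (-0.63, adjusted p = 0.000435). It did not in CON (-0.24, 0.316) or HFhf (-0.12, 0.626). Pdgfrb fell by 0.69 (0.00613) with that liver, and without it the value was -0.49 (0.051). The Pdgfrb call was kept in 14 of 15 leave-outs (-0.90 to -0.49) and in 5 of 6 other settings (-0.82 to -0.61). In the female ZT4 IUGR-RC replicate 3, whose clock genes went against its time label, Pdgfrb was at 7.445 CPM. Replicates 1 and 2 of that group were at 27.23 and 34.3. Col4a1 was not called between times in IUGR-RC (-0.31, edgeR adjusted p = 0.0779). Lox was higher in males by 2.38 (0.00287), and by 2.99 (0.00134) without the female ZT4 IUGR-RC replicate 2. The levels of Lox were 0.699 to 3.089 CPM in the 8 IUGR-RC males and 0.117 to 1.257 in the 7 females. Title series goes with sex within IUGR-RC, so these sex differences cannot be told apart from a difference between series.

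Members varied together between livers of a group to a small degree. Over the 561 pairs of genes, deviations of log2(CPM + 0.5) from group means had a median Pearson correlation of 0.294 (Spearman 0.204) over 56 libraries, and 102 pairs were above 0.5. Without the female ZT4 IUGR-RC replicate 2 the median was 0.147 (Spearman 0.145), and 30 pairs were above 0.5. The pairs that varied most closely were then Dcn with Lum at 0.68, Col5a1 with Col6a2 at 0.65, Col14a1 with Reln at 0.64, Col5a1 with Col4a1 at 0.63 and Sparc with Vim at 0.61. All points share the depth and composition of their library, and no test was made.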

How the data were processed

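Liver RNA was sequenced after ribosomal RNA removal with a stranded kit, per the labels' protocols. The authors deposited a table of raw read counts per gene. The submitters' processing notes name FastQC, STAR, Subread, featureCounts, DESeq2 and the rn6 build; versions are not given in the sources used here. The authors' deposited comparison tables hold a mean normalised signal, a log2 fold change and a p-value, with its adjusted form, per gene; they were used only where named.

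The counts of all 56 libraries were fitted in R 4.3.3 with edgeR 4.0.16 (quasi-likelihood test, 1 mean per group, TMM scaling, filter on low counts by group, 40 residual degrees of freedom). P-values were two-sided and adjusted by Benjamini-Hochberg over 11047 genes, with a threshold of 0.05, and "rose", "fell" and "called" refer to it. The standard error is the absolute log2 fold change over the square root of F. CPM use TMM-scaled library sizes. The listed genes, companion lists and markers were chosen with earlier results of these data known. After values were seen, 7 comparisons were added to the same fit. They were time and sex within CON, HFhf or IUGR-HFhf, and the time effect in males minus females. Values are given for genes called in a comparison of means without IUGR-RC, at most 14 by smallest p, and always for Col1a1, Col3a1, Acta2, Timp1, Tgfb1, Lrat and Des, which made 18 genes. Alternatives were limma-voom (limma 3.58.1), DESeq2 1.42.0, other scaling, no filter, leaving out each library, leaving out the 4 libraries that stand apart, and fitting only the groups compared. The code was tested on simulated data.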

Additional observations from a re-analysis of the deposited data

Results flagged for a closer look

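Single livers that stood apart from the other 3 of their group were looked for with Dixon's criterion in 8 groups of 4 livers and 21 genes. Of 168 combinations, 14 passed, and chance flags about 1 in 20. All values are CPM.

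The female ZT16 IUGR-HFhf replicate 2 accounted for 4 of them. Its Acta2 was at 6.248 (others 3.064 to 3.313), its Lox at 1.041 (0.1277 to 0.2071), its Fbn1 at 19.49 (16.46 to 16.92) and its Reln at 105.2 (117.6 to 118.4). In the female ZT4 IUGR-HFhf replicate 3, Col1a1 was at 12.03 (others 3.698 to 4.896) and Loxl2 at 8.56 (6.34 to 6.579). The female ZT16 HFhf livers gave Col3a1 at 159.6 in replicate 2 (others 116 to 123.1) and Sparc at 81.52 in replicate 1 (109.9 to 114.5). Des was at 16.22 in the male ZT16 HFhf replicate 3 (others 2.486 to 2.85), a liver with skeletal muscle markers at 487.6. In the male ZT16 IUGR-HFhf group, Mmp2 was at 3.836 in replicate 3 (others 6.309 to 6.718) and Pdgfrb at 20.96 in replicate 4 (18.97 to 19.18). The IUGR-RC groups gave Col1a1 at 6.925 in the female ZT16 replicate 1 (others 2.696 to 2.994), Mmp14 at 47.98 in the male ZT16 replicate 2 (32.28 to 34.71) and Lrat at 48.79 in the male ZT4 replicate 2 (76.05 to 80.39).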

How the results depend on the processing

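Of 525 single-gene values under other settings, 451 kept their direction and side of the threshold, and of 2546 with 1 library left out, 2339 did. The number of genes called in IUGR-HFhf against CON was 6 with only the groups compared, and 1 to 4 with 1 library left out; in HFhf against CON it was 1 to 2. In males at ZT16 (IUGR-HFhf against CON) it was 6 without the 4 libraries that stand apart, 8 with only the groups compared and 0 to 2 with 1 library left out; these were chosen after seeing the data. The HFhf effect at ZT16 minus ZT4 had 1 call with only the groups compared. Time within IUGR-RC had 9 calls with limma-voom, 3 with only the groups compared, 7 without the 4 libraries and 6 to 17 with 1 left out; sex within IUGR-RC had 7, 4 and, with 1 left out, 7 to 14. Signs turned without the 4 libraries, and mostly without the female ZT4 IUGR-RC replicate 2 alone, the liver with skeletal muscle markers at 4335 CPM; the cause was not tested. Without the 4, the log2 value of Des in IUGR-RC against CON was -0.054 (-0.12 to 1.05 with 1 library left out). Within IUGR-RC it was, for time, 0.068 for Col1a1 (-1.67 to 0.27), 0.19 for Des (-2.09 to 0.26) and 0.10 for Acta2, and, for sex, 0.32 for Col1a1 (-1.42 to 0.52) and 0.11 for Des (-2.17 to 0.18). No paired analysis was possible because the labels give no replicate numbers shared between groups. Depth limits Lox in females, which has few reads.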
